A study of Mus musculus with 17 samples.

Results

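The comparison described here set the liver transcriptome of Gata4LKO mice given GW3965 against that of Gata4LKO mice given vehicle, across all genes. Its members were chosen by sample title and made up 9 of the 17 RNA-seq libraries of the study, 5 with GW3965 (replicates 14 to 18) and 4 with vehicle (replicates 5 to 8). All mice were males of a mixed strain carrying floxed Gata4 alleles (Gata4 fl/fl). The Gata4LKO mice had received AAV8-Tbg-Cre, an adeno-associated virus in which the hepatocyte promoter Tbg drives Cre recombinase. Cells in which Tbg is silent are not reached by this promoter, so Gata4 can remain in the other liver cells. The 8 libraries of the control arm, 4 per treatment (vehicle, replicates 1 to 4; GW3965, replicates 9, 10, 12 and 13), came from Gata4 fl/fl mice given an empty AAV8. Treated mice of both arms received GW3965 by gavage at 40 mg/kg, 17 h and 8 h before they were killed, and vehicle mice received dimethylsulfoxide in canola oil on the same schedule. All had been fasted for 4 h. The sample labels give an age of 11 weeks, with the virus given at 10 weeks, while the series text gives an age of 9 weeks. The treatment characteristic of the Gata4LKO vehicle libraries and of the control GW3965 libraries contradicted their titles. The titles were followed. Nothing in the labels ties a library to a mouse of its own, so the p-values measure the spread between libraries, which may be technical.

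GW3965 is a man-made ligand that activates the liver X receptors, LXRα (Nr1h3) and LXRβ (Nr1h2). These nuclear receptors bind oxysterols, pair with a retinoid X receptor and act at repeats of a short hexamer spaced by a few bases. In liver they are known for turning on sterol export through ABC transporters and fatty acid synthesis, the latter partly through the transcription factor SREBP-1c (Srebf1). GATA4 is a zinc-finger transcription factor that marks hepatocytes, sinusoidal endothelium and stellate cells. Whether the response to an LXR agonist takes place in liver whose hepatocytes were exposed to Cre is the question that the comparison addresses.

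Sterol transporters (Abcg5, Abcg8 and Abcg1), fatty acid desaturases (Scd1, Scd2 and Fads2) and enzymes of the peroxisome (Ehhadh and Acaa1b) were higher with GW3965 in Gata4LKO liver, and the cholesterol synthesis enzyme Sqle was lower. With limma on log2(normalized count + 1), the test meant wherever a gene is said to be called or to pass, 33 of 13379 tested genes had an adjusted p below 0.05, which is 0.247% of the genes. Of these, 27 rose (0.202% of tested genes) and 6 fell (0.0448%). At an unadjusted p below 0.05 there were 1599 genes, 12% of those tested, of which 857 were higher and 742 lower with GW3965. DESeq2, run on reads, called more genes than limma over all tested genes. Its counts in lists are to be read beside its count over all genes, given in the last section. In all 33 genes the GW3965 and vehicle libraries did not overlap. Over all tested genes, every GW3965 library lay above every vehicle library in 2.91% of genes and below in 2.34%. The difference exceeded 2-fold in 23 of the 33 genes. By annotation, 29 were protein-coding, 3 were lncRNAs and 1 was a pseudogene. Only 14 of the 33 belonged to any of the 32 pathway and cell type lists examined. The median difference over all genes was -0.0049 on the log2 scale, and 49.4% of tested genes had a positive difference.

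**Figure D1:**
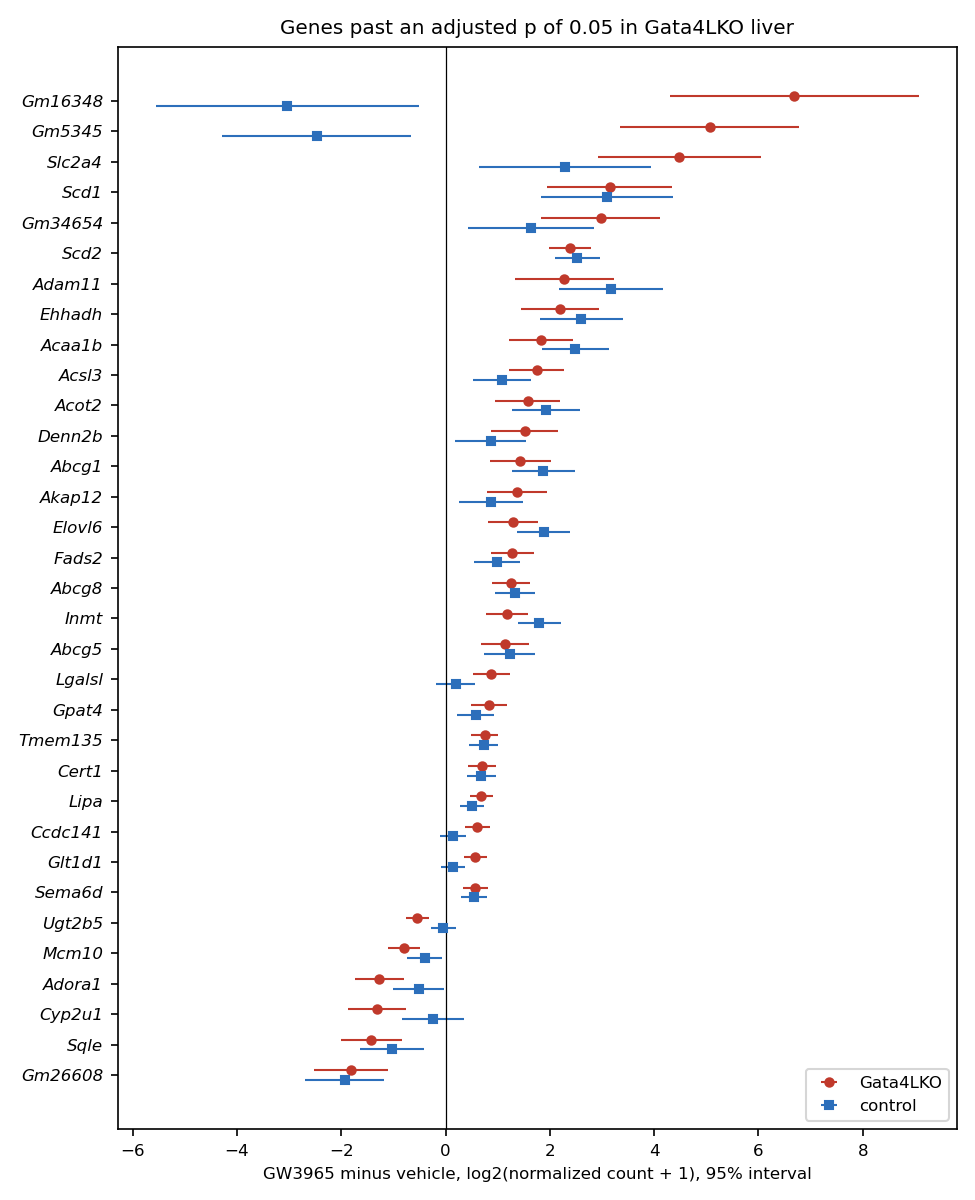
The 33 genes with an adjusted p below 0.05 in Gata4LKO liver, in order of their log2 difference between GW3965 and vehicle (x axis). Red circles are Gata4LKO liver and blue squares control liver, with 95% intervals from the same limma fit; 31 of the 33 genes lie on the same side of 0 in both, and Gm5345 and Gm16348 do not.

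Some libraries stood apart from the rest of their group. Reads in genes ranged from 14.9 to 22.05 M in the vehicle libraries and from 11.8 to 19.6 M in the GW3965 libraries. The share of mitochondrially encoded genes among normalized counts was 6.26% to 7.26% in the 4 vehicle libraries and 6.27% to 7.11% in GW3965 replicates 14 to 16, but 32.6% in replicate 17 and 16.9% in replicate 18. Without replicates 17 and 18, 12 genes passed the test, 9 of them among the 33. These 9 were Lipa, Abcg5, Abcg8, Inmt, Acsl3, Acaa1b, Ehhadh, Scd2 and Gm5345. The other calls were lost, those of Scd1, Abcg1, Fads2, Elovl6, Acot2 and Sqle among them. All 33 kept their sign and none moved by more than 1.5 times on the log2 scale. The genes called in all 9 fits that left out 1 Gata4LKO library were Lipa, Abcg8, Fads2, Acsl3, Acaa1b and Scd2. The number of calls ran from 6 without vehicle replicate 6 to 78 without GW3965 replicate 15. It was 11 without replicate 5, 13 without 7, 16 without 8, 28 without 14, 17 without 16, 27 without 17 and 10 without 18. GW3965 replicate 16 and vehicle replicate 6 also had fewer genes above 0 than the other libraries of their groups, 15601 and 15515.

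**Figure D2:**
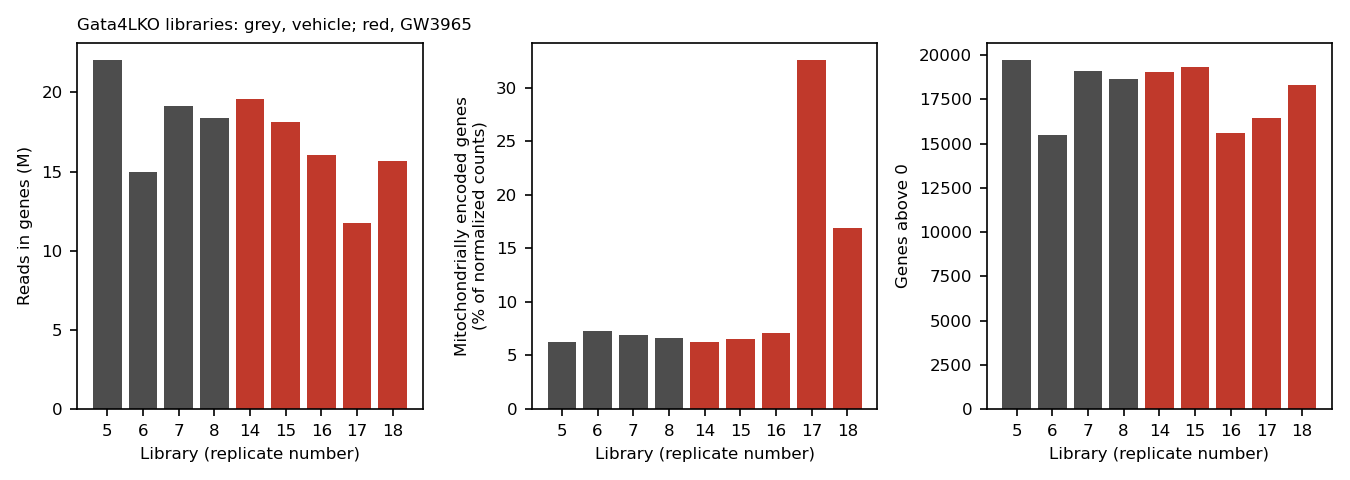
Reads in genes (M), share of normalized counts from mitochondrially encoded genes (%) and number of genes above 0 (y axes) in each Gata4LKO library (x axis, replicate number). Grey bars are vehicle and red bars GW3965; replicates 17 and 18 carry the highest mitochondrial shares, 32.6% and 16.9%.

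A pair of transcripts on chromosome 8 separated the treatment groups of Gata4LKO liver almost completely. Gm5345, an annotated pseudogene at chr8:40853828-40855027 (mm10), had normalized counts of 0.667, 0, 1.64 and 0.876 in the vehicle libraries and 101, 40.9, 98.4, 23.1 and 56.9 with GW3965. Gm16348, a lncRNA at chr8:41218139-41220894, had 0.667, 0, 0 and 0 against 155, 53.1, 153, 100 and 165. All vehicle libraries were near 0 and none with GW3965 was. In reads, Gm5345 had 4 against 341 and Gm16348 had 1 against 617, a ratio of 603 for Gm16348 with a 95% counting interval of 108 to 23864. The split did not follow treatment in the control arm. There the vehicle libraries had Gm5345 at 30.3, 49.0, 53.9 and 66.0, while GW3965 replicates 9 and 10 were at 0.833 and 1.00 and replicates 12 and 13 at 35.8 and 43.8. Gm16348 went the same way, at 0 in replicates 9 and 10 and at 43.7 and 195 in replicates 12 and 13. Within Gata4LKO liver this split and the treatment cannot be told apart. In the control arm both kinds of library had received GW3965. There the values of some genes overlapped between the 2 libraries near 0 for Gm5345 and the others. Scd2 stood at 493 and 404 against 597 and 311, and Abcg8 at 5208 and 8627 against 6714 and 5533. Other genes lay apart, such as Cyp7a1 at 7995 and 5719 against 19346 and 16432, and Cyp8b1 at 2161 and 718 against 4846 and 4098. These genes are picked examples. With so few libraries on each side, values can lie apart by chance. The share of all genes that lay apart was not counted, and whether other genes follow the split was not tested.

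Gata4 itself was not lower in the libraries labelled Gata4LKO. The gene, at chr14:63198922-63271692, had normalized counts of 181, 137, 234 and 223 with vehicle and 260, 194, 244, 160 and 239 with GW3965, a difference of 0.19 ± 0.19 (log2, SE; limma adjusted p = 0.670). In control liver it had 128, 169, 183 and 132 with vehicle and 164, 254, 258 and 209 with GW3965. The means were 194 ± 44.2 (SD, n = 4) in Gata4LKO and 153 ± 27.3 (n = 4) in control liver with vehicle, and 219 ± 41.2 (n = 5) and 221 ± 44.1 (n = 4) with GW3965. The ranges of the genotypes overlapped in both treatments. These counts cover the whole gene, including any reads from outside the floxed part, so they do not show whether the deletion took place, and Gata4LKO is used here as the name the labels give. Gata6, which encodes a related GATA factor, had 120, 137, 98.5 and 85.9 with vehicle and 184, 185, 185, 316 and 243 with GW3965. Its groups did not overlap, but its difference of 0.99 ± 0.23 had an adjusted p of 0.0761. The hepatocyte markers were high in every library: albumin (Alb) was at 895197 normalized counts or more in each, and none of the 12 hepatocyte markers passed the test with limma, edgeR or DESeq2, or had an unadjusted limma p below 0.05.

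The sterol transporter genes Abcg5, Abcg8 and Abcg1 rose. Abcg5 and Abcg8 encode the subunits of the transporter that secretes cholesterol and plant sterols into bile. Abcg8 (chr17:84676302-84700333) had normalized counts of 2260, 2272, 1976 and 1845 with vehicle and 5188, 3552, 7304, 4960 and 4502 with GW3965, with replicate 16 highest. It rose by 1.25 ± 0.17 (log2, SE; adjusted p = 0.00769), or 2.38-fold with a 95% interval of 1.85 to 3.07. Abcg5 (chr17:84658234-84683011) went from 1383, 1589, 1262 and 935 to 3120, 2144, 4915, 2361 and 2240, a rise of 1.14 ± 0.22 (adjusted p = 0.0341). Abcg1, a transporter that loads cholesterol onto HDL, stood at 105, 143, 94.4 and 77.1 with vehicle and at 282, 181, 364, 297 and 307 with GW3965. Its rise was 1.44 ± 0.28 (adjusted p = 0.0341). In each of the 3 genes the lowest GW3965 library was above the highest vehicle library. The calls of Abcg5 and Abcg1 were lost in 7 and 8 of the 9 fits that left out 1 library, with differences between 0.94 and 1.25 for Abcg5 and between 1.30 and 1.60 for Abcg1. Abca1, which hands cholesterol to lipid-poor apolipoproteins, fell just short of the threshold. It had 3786, 3873, 4016 and 4010 with vehicle and 6846, 5847, 8462, 6685 and 7401 with GW3965, a difference of 0.84 ± 0.17 (adjusted p = 0.0518). In the annotation the spans of Abcg5 and Abcg8 overlap on opposite strands, and no source used here gives the strand setting of the counting, so reads could be shared between them.

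The short interval between the RefSeq start sites of Abcg5 and Abcg8 is shown because both genes rose together and share it, and because it holds a pair of matches to the hexamers of GATA factors, in capitals (chr17:84683012-84683120, GRCm38.p6, plus strand; Abcg8 starts to its right and Abcg5, on the minus strand, to its left).
Abcg5-Abcg8 interval: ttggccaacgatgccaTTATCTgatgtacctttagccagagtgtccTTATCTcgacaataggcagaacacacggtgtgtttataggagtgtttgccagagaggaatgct
The hexamers searched on both strands were AGATAA or AGATAG as well as TGATAA or TGATAG. They occurred in the 250 bases before the start in 26.5% of 32851 RefSeq promoters. Among the 20 called genes that had a promoter entry they occurred in 6, near that share, namely Abcg5, Abcg8, Acsl3, Ccdc141, Gm34654 and Sema6d. The matches in the shared interval count for both Abcg5 and Abcg8. The repeat known as DR4, to which LXR with its partner binds, was searched in the same windows in a relaxed form. It occurred in 64 promoters, 0.195%, and in 1 of the 20, that of Acsl3, shown with the match in capitals (chr1:78657575-78657824, GRCm38.p6, plus strand).
Acsl3: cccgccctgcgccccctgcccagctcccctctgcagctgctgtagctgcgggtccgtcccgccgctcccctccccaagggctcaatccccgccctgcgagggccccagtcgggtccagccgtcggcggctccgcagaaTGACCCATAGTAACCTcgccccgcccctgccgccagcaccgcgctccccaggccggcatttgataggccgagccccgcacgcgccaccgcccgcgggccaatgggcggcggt
A match describes the letters of these windows and is not a measured binding site.

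Acsl3, the gene with that match, encodes an enzyme that joins long-chain fatty acids to coenzyme A at the endoplasmic reticulum and lipid droplets. Its normalized counts (gene at chr1:78657825-78707743) were 303, 228, 332 and 204 with vehicle and 656, 651, 990, 1401 and 902 with GW3965. All treated libraries lay above the vehicle libraries, and the rise was 1.75 ± 0.25 (log2, SE; adjusted p = 0.00837). Acsl3 shares its span with Utp14b on the same strand. In control liver its difference was 1.09 (adjusted p = 0.0714), and the difference between the genotypes had an unadjusted p of 0.0886.

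Of the 26 tested genes on a list of known LXR targets, 22 had a positive difference, against 49.4% of all genes. The median was 0.73, against -0.0049 over all genes. In 14 of the 26 every GW3965 library was above every vehicle library, against 2.91% of all tested genes. The test called 6 as higher, against 0.202% of all tested genes: Scd2, Abcg8, Slc2a4, Scd1, Abcg5 and Abcg1. DESeq2 called 13. None fell. The lists were drawn up with earlier results of these data known, so the counts describe the genes and are not independent evidence. Lpcat3, which puts polyunsaturated chains into phospholipids, had 1457, 1828, 1503 and 1366 with vehicle and 2246, 2195, 3605, 2372 and 3144 with GW3965, a difference of 0.80 ± 0.18 (adjusted p = 0.0648). Mylip, which encodes the ubiquitin ligase IDOL, differed by 0.85 ± 0.22 (adjusted p = 0.110). Their groups did not overlap. Neither was called by limma, and DESeq2 called both (adjusted p = 0.00385 for Lpcat3 and 0.0172 for Mylip). The lowest member of the list was Ttc39b, at -0.34 ± 0.11 (adjusted p = 0.274). Cyp7a1, the rate-limiting enzyme of bile acid synthesis and an LXR target in rodents, stood at 4567, 10039, 7516 and 7442 with vehicle and at 8980, 4279, 9959, 13951 and 10473 with GW3965. The groups overlapped, and the difference was 0.32 ± 0.35 (adjusted p = 0.684). The receptors themselves did not pass the test. Nr1h3 differed by -0.16 ± 0.11 (adjusted p = 0.545) and Nr1h2 by -0.13 ± 0.18 (adjusted p = 0.764), and Nr1h2 was at 0.05 without replicate 17. None of the 15 tested genes for LXR, its partners and its cofactors was called by limma, edgeR or DESeq2. An unadjusted limma p below 0.05 was found for 1 of them, against 12% of all tested genes.

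**Figure D3:**
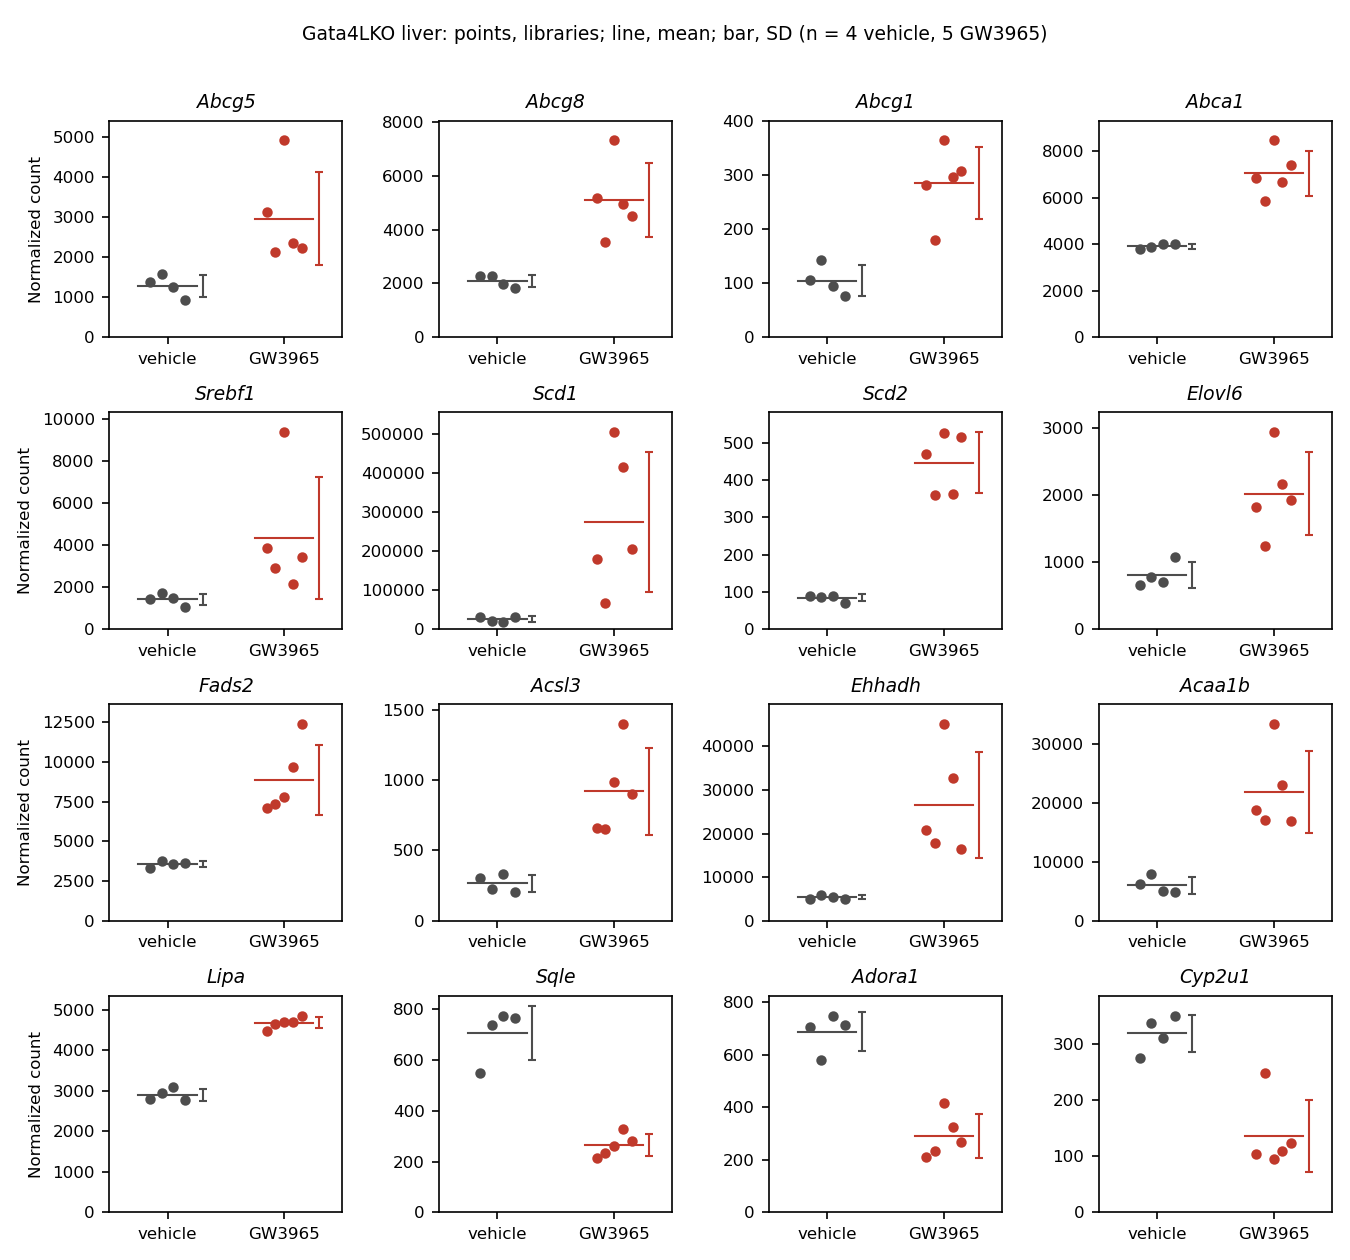
Normalized counts (y axis, from 0) of 16 genes in each Gata4LKO library, vehicle in grey (n = 4) and GW3965 in red (n = 5); the line is the mean and the bar the SD. In every panel the 2 groups are apart, with replicate 16 the highest of the GW3965 libraries for Abcg5, Abcg8, Abcg1, Abca1, Srebf1, Scd1, Scd2, Elovl6, Ehhadh, Acaa1b and Adora1.

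Scd1 and Scd2 encode stearoyl-CoA desaturases, which put the double bond into saturated fatty acids, and both rose. Scd2 (chr19:44293674-44306864) had the smallest p of all genes. Its normalized counts were 88.8, 87.3, 89.5 and 71.0 with vehicle and 470, 360, 528, 362 and 517 with GW3965, a rise of 2.38 ± 0.19 (log2, SE; adjusted p = 5.16e-06), or 5.22-fold with a 95% interval of 3.93 to 6.92. Scd1, the main hepatic form (chr19:44394455-44407879), went from 32176, 21356, 17330 and 32098 to 178853, 67670, 504364, 416099 and 204380. The treated libraries spread over a wide range but all lay above the vehicle libraries. The rise was 3.15 ± 0.57 (adjusted p = 0.0252), and its call was lost in 7 of the 9 fits that left out 1 library, with differences between 2.85 and 3.57. Scd1 and Scd2 are close copies of each other, and no source used here says how the counting assigned shared reads, so their values are uncertain to that extent.

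The desaturase gene Fads2 and the elongase gene Elovl6 rose as well. Fads2, the delta-6 desaturase of polyunsaturated fatty acids (chr19:10062765-10101746), had 3297, 3764, 3559 and 3634 with vehicle and 7091, 7347, 7810, 9687 and 12396 with GW3965. Its rise was 1.28 ± 0.20 (adjusted p = 0.0122). Elovl6, the elongase of saturated and monounsaturated chains (chr3:129532355-129638495), went from 657, 778, 711 and 1084 to 1818, 1239, 2943, 2174 and 1933, a rise of 1.29 ± 0.23 (adjusted p = 0.0236). Its call was lost without replicate 5, 6, 7, 16 or 18. Of the 22 tested lipogenesis genes 18 had a positive difference, with a median of 0.74. In 12 of them all GW3965 libraries were above all vehicle libraries, against 2.91% of all tested genes. The test called 4 as higher (Scd2, Fads2, Elovl6 and Scd1), against 0.202% of all tested genes, and DESeq2 called 12.

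Fasn and Acaca, enzymes of fatty acid synthesis, and the regulator Srebf1 had large differences with wide spread. Srebf1 stood at 1413, 1708, 1479 and 1037 with vehicle and at 3869, 2890, 9363, 2124 and 3406 with GW3965. Replicate 16 was far above the other treated libraries. The difference of 1.44 ± 0.38 had an adjusted p of 0.135 with limma and of 0.101 with edgeR. DESeq2 called Srebf1 (adjusted p = 0.0274). Fasn, the fatty acid synthase, went from 1580, 1744, 1624 and 1830 to 5052, 2900, 18428, 3864 and 5512, with replicate 16 again highest. Its difference was 1.74 ± 0.48 (adjusted p = 0.147). Acaca, which makes the malonyl-CoA for that synthesis, had 414, 510, 397 and 380 with vehicle and 824, 658, 1703, 954 and 931 with GW3965. It differed by 1.18 ± 0.25 (adjusted p = 0.0516). The groups of all 3 genes did not overlap. Nor did those of Acacb, at 1.04 ± 0.31 (adjusted p = 0.210). Other members of the lipogenesis list differed less, and their groups overlapped. These were Acly at 0.23 ± 0.23 (adjusted p = 0.661), Me1 at 0.31 ± 0.23 (adjusted p = 0.564), Slc25a1 at -0.07 ± 0.16 (adjusted p = 0.867) and Acss2 at -0.05 ± 0.31 (adjusted p = 0.951). Members of the list at the other end were Elovl3, at -0.99 ± 0.48 (adjusted p = 0.427), and Dgat2, at -0.47 ± 0.26 (adjusted p = 0.458). Gpat4, an acyltransferase at the start of glycerolipid synthesis that was named after its values were seen, rose by 0.84 ± 0.16 (adjusted p = 0.0341), from 3869, 4067, 3223 and 4596 to 7466, 6515, 7847, 6386 and 6847.

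Ehhadh and Acaa1b, of peroxisomal fatty acid oxidation, rose as well. Ehhadh, the peroxisomal bifunctional enzyme (chr16:21761287-21787807), had 5093, 6000, 5451 and 4981 with vehicle and 20832, 17895, 45172, 32751 and 16347 with GW3965. Even the lowest treated library was well above the vehicle range, and the rise was 2.20 ± 0.36 (log2, SE; adjusted p = 0.0122), or 4.58-fold with a 95% interval of 2.72 to 7.73. Its call was lost without vehicle replicate 5 or 6, with differences between 1.98 and 2.34 over all such fits. Acaa1b, a peroxisomal thiolase (chr9:119148023-119157093), went from 6250, 7979, 5089 and 4860 to 18835, 17097, 33516, 23091 and 16967, a rise of 1.83 ± 0.29 (adjusted p = 0.0122). Acot2, a mitochondrial thioesterase, went from 64.7, 63.1, 59.9 and 58.7 to 137, 120, 203, 262 and 249, a rise of 1.57 ± 0.30 (adjusted p = 0.0291). Its call was lost in 7 of the 9 fits that left out 1 library. Acaa1b has the close copy Acaa1a, at -0.06 ± 0.23 (adjusted p = 0.916), and Acot2 has Acot1, at 1.59 ± 0.43 (adjusted p = 0.139), so both are uncertain where reads were shared.

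Over the list of fatty acid oxidation genes and targets of the nuclear receptor PPARα, 27 of 33 tested genes had a positive difference, with a median of 0.31. In 12 of them the GW3965 libraries were all above the vehicle libraries, against 2.91% of all tested genes. The test called 3 as higher, against 0.202% of all tested genes. These 3 were Ehhadh, Acaa1b and Acot2. The genes of mitochondrial entry and oxidation did not pass the test, such as Cpt1a at -0.10 ± 0.13 (adjusted p = 0.737), Acadvl at -0.19 ± 0.17 (adjusted p = 0.607) and Hadha at -0.03 ± 0.12 (adjusted p = 0.912). Among them Acadm, at 0.31 ± 0.14 (adjusted p = 0.398), and Acadl, at 0.30 ± 0.13 (adjusted p = 0.389), were higher in every GW3965 library than in any vehicle library. So were the P450 genes Cyp4a10 (1.55 ± 0.57, adjusted p = 0.308), Cyp4a14 (1.48 ± 0.69, adjusted p = 0.410) and Cyp4a31 (1.33 ± 0.60, adjusted p = 0.398), which did not pass either. Ppara itself differed by 0.02 ± 0.19 (adjusted p = 0.974). Pdk4, a kinase that shuts off pyruvate oxidation, differed by 1.76 ± 0.41 (adjusted p = 0.0761). Tmem135, a peroxisome-associated membrane protein named after its values were seen, rose by 0.75 ± 0.12 (adjusted p = 0.0122), from 1205, 1197, 1389 and 1380 to 2045, 1863, 2553, 2353 and 2115.

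Sqle was the called gene of cholesterol synthesis, and it fell. Sqle, which encodes squalene epoxidase (chr15:59315077-59331192), had 549, 739, 774 and 766 with vehicle and 214, 234, 262, 328 and 281 with GW3965. All treated libraries lay below the lowest vehicle library, replicate 5. Sqle fell by 1.42 on the log2 scale (SE 0.28; adjusted p = 0.0367), and its call was lost in 7 of the 9 fits that left out 1 library, with differences between -1.54 and -1.35. Among 25 tested members of the list for cholesterol synthesis and uptake, 20 showed a negative difference, with a median of -0.25. In 6 of them all GW3965 libraries were below all vehicle libraries, against 2.34% of all tested genes. Only Sqle passed the test with limma and edgeR, and DESeq2 called 5 members. Cyp51, which demethylates lanosterol, had 1774, 2343, 2558 and 2278 with vehicle and 926, 1015, 1124, 1873 and 993 with GW3965, where replicate 17 overlapped the vehicle range. Its difference was -0.95 ± 0.20 (adjusted p = 0.0516). Mvd, of the mevalonate pathway, differed by -1.38 ± 0.35 (adjusted p = 0.112), and Msmo1 by -0.96 ± 0.24 (adjusted p = 0.103). Insig1, which retains the sterol-sensing complex in the endoplasmic reticulum, was the most positive member at 0.50 ± 0.17 (adjusted p = 0.272).

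Lipa, the lysosomal acid lipase that frees cholesterol and fatty acids from lipoproteins (chr19:34492318-34527474), rose with little spread. Its counts were 2786, 2937, 3104 and 2784 with vehicle and 4474, 4660, 4702, 4702 and 4858 with GW3965, a rise of 0.69 ± 0.10 (adjusted p = 0.0104). The treated libraries, including replicates 17 and 18, lay within a narrow band. It was the only gene called by limma, edgeR or DESeq2 among 30 tested lysosomal genes, of which 22 had a negative difference, with a median of -0.12. Cert1, the ceramide carrier to the Golgi, named after its values were seen, rose by 0.70 ± 0.12 (adjusted p = 0.0238), from 826, 807, 1035 and 997 to 1447, 1156, 1505, 1948 and 1446.

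Among 18 tested bile acid genes limma and edgeR called none and DESeq2 called 2, and unadjusted limma p-values were below 0.05 for 2 with a higher and 3 with a lower value. Cyp8b1, the sterol 12-hydroxylase that sets the share of cholic acid, had 5764, 6523, 6732 and 4966 with vehicle and 2598, 4191, 834, 823 and 1953 with GW3965. Its groups did not overlap, and the difference of -1.80 ± 0.49 had an adjusted p of 0.142. Abcc4, a basolateral exporter, was at 1.20 ± 0.31 (adjusted p = 0.113). Of 22 lipoprotein genes limma and edgeR called none and DESeq2 called 1, Abca1 (adjusted p = 0.00183). Unadjusted limma p-values were below 0.05 for 5 with a higher and 1 with a lower value. To be set beside both lists, such p-values were found for 857 higher and 742 lower of all 13379 tested genes.

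Other genes that rose act outside lipid synthesis and oxidation. Slc2a4 encodes the glucose transporter GLUT4 of muscle and fat (chr11:69942539-69948188) and is a known LXR target. It was near 0 with vehicle, at 0.667, 0, 1.64 and 1.75, and stood at 30.6, 13.9, 257, 19.3 and 50.2 with GW3965. The reads were 5 against 369, a ratio of 72.2 with a 95% counting interval of 30.6 to 224, and replicate 16 held the largest share. On the log2(normalized count + 1) scale the rise was 4.48 ± 0.75 (adjusted p = 0.0139), and the call was lost without replicate 5, 6 or 18. Adam11, a catalytically inactive member of the ADAM family, went from 153, 364, 166 and 141 to 928, 469, 3087, 674 and 757, a rise of 2.28 ± 0.45 (adjusted p = 0.0404). Vehicle replicate 6 and GW3965 replicate 16 were the highest of their groups. Inmt, an indolethylamine methyltransferase named after its values were seen, went from 3979, 2971, 4455 and 3754 to 9819, 7627, 9472, 8660 and 7238, a rise of 1.18 ± 0.19 (adjusted p = 0.0122).

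The scaffold gene Akap12, which anchors protein kinase A, rose by 1.38 ± 0.27 (adjusted p = 0.0421), from 42.0, 37.9, 44.3 and 43.8 to 95.01, 114, 61.6, 212 and 116. Denn2b rose by 1.52 ± 0.31 (adjusted p = 0.0444), from 156, 162, 158 and 290 to 424, 531, 591, 443 and 715, where vehicle replicate 8 was highest. The remaining genes that rose, named after their values were seen, were Gm34654 (2.98 ± 0.54), Lgalsl (0.87 ± 0.17), Ccdc141 (0.61 ± 0.11), Glt1d1 (0.57 ± 0.10) and the semaphorin gene Sema6d (0.57 ± 0.11). Gm34654 is an uncharacterised transcript with 18 reads in the vehicle group. Akap12, Denn2b and Adam11 each lost their call in 7 or 8 of the 9 fits that left out 1 library.

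Besides Sqle, 5 genes fell. Adora1, the adenosine A1 receptor (chr1:134199223-134235431), had 707, 580, 750 and 716 with vehicle and 212, 234, 419, 324 and 268 with GW3965, and fell by 1.27 on the log2 scale (SE 0.22; adjusted p = 0.0217). It overlaps Mybph on the opposite strand. Cyp2u1, a P450 that hydroxylates long-chain fatty acids, had 276, 339, 312 and 351 with vehicle and 104, 249, 94.5, 110 and 124 with GW3965. Replicate 15 stayed close to the vehicle range, and the decrease was -1.31 ± 0.27 (adjusted p = 0.0485). Mcm10, of the replication origin complex, went from 1058, 1389, 1324 and 1403 to 826, 926, 712, 644 and 636 (-0.79 ± 0.15, adjusted p = 0.0291). Ugt2b5, a glucuronosyltransferase from a family of close copies, went from 12536, 13277, 11078 and 11504 to 8010, 10154, 8728, 8174 and 6838 (-0.54 ± 0.11, adjusted p = 0.0444). The lncRNA Gm26608 (chr5:28019465-28071105), a neighbour of Insig1 (chr5:28071363-28078662), went from 60.7, 44.2, 63.2 and 78.0 to 26.7, 28.6, 10.9, 7.71 and 17.9 (-1.82 ± 0.34, adjusted p = 0.0291). Each of these 5 calls was lost in 5 to 8 of the 9 fits that left out 1 library, and none was called without replicates 17 and 18.

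Cyp2u1 was also the only gene that limma called of 22 tested genes that are higher in male than in female liver, where DESeq2 called 4 and edgeR none. Of these 22 genes, 20 had a negative difference, with a median of -0.66 against -0.24 in control liver. In 3 all treated libraries were below all vehicle libraries, against 2.34% of all tested genes. Hsd3b5, a steroid reductase of male liver, had 970, 1549, 1148 and 621 with vehicle and 302, 735, 157, 189 and 72.5 with GW3965, a difference of -2.22 ± 0.48 (adjusted p = 0.0542). The groups overlapped through replicate 15. The members varied widely within groups: Moxd1 had 62.1, 1700, 165 and 49.1 with vehicle. The 13 tested female-biased genes had a median of 0.20, and of -0.07 without replicates 17 and 18.

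The lists that follow held no gene called by limma or edgeR. DESeq2 called 1 gene of the unfolded protein list, 1 of glucose metabolism and 1 of the iron and haem list, and none of the interferon, acute phase, cell cycle, clock and respiratory chain lists. Unadjusted limma p-values were below 0.05 for 1 higher and 10 lower genes of the unfolded protein list, for 5 higher and 1 lower of glucose metabolism and for 5 higher and 2 lower of iron and haem, and for at most 2 in either direction in each of the other 5 lists. Over all 13379 tested genes, 857 were higher and 742 lower at that unadjusted threshold. Of 28 genes of the unfolded protein and integrated stress response, 16 had a negative difference, with a median of -0.14. In 5 all GW3965 libraries were below all vehicle libraries, against 2.34% of all tested genes. Xbp1, a regulator of that response, was at -0.55 ± 0.14 (adjusted p = 0.108). Of 26 interferon response genes, 20 were negative in Gata4LKO liver, with a median of -0.29, and 20 were positive in control liver, with a median of 0.22. None of them passed the test of the difference between genotypes, and 3 had an unadjusted p below 0.05 there, against 4.65% of all tested genes. Acute phase genes had a median of -0.01 in Gata4LKO liver, with 14 of 28 positive, and of -0.32 in control liver, with 3 of 28 positive. The 24 genes of glucose metabolism had a median of 0.22, the 19 cell cycle genes 0.01, the 21 clock genes -0.02, the 29 iron and haem genes -0.09 and the 31 nuclear genes of the respiratory chain -0.05.

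**Figure D4:**
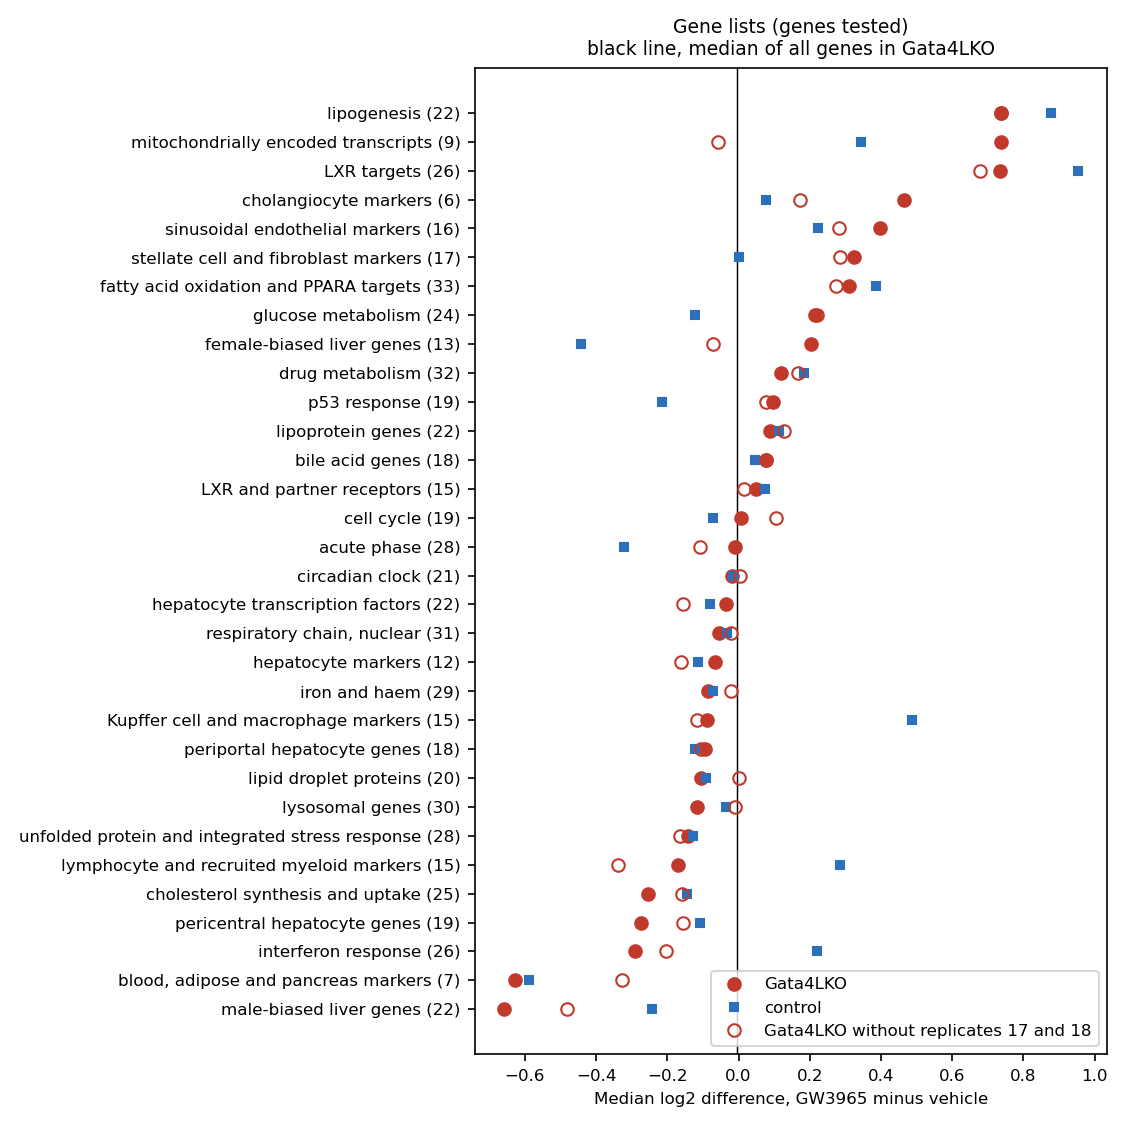
Median log2 difference between GW3965 and vehicle (x axis) of each gene list (y axis, genes tested in brackets) in Gata4LKO liver (filled red), in control liver (blue) and in Gata4LKO liver without replicates 17 and 18 (open red). Lipogenesis and LXR targets lie at the right at 0.74 and 0.73 in Gata4LKO liver, and mitochondrially encoded transcripts move from 0.74 to -0.06 without the 2 libraries.

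Marker sums of other liver cells were compared between the groups. In bulk tissue, fewer cells of a type and less RNA per cell cannot be told apart. The summed normalized counts of 16 sinusoidal endothelial markers were 8576 to 10153 with vehicle and 8894 to 13978 with GW3965, and 15 of the 16 had a positive difference, with a median of 0.40. Without replicates 17 and 18 the median was 0.28. Cdh5, of endothelial junctions, was at 0.64 ± 0.14 (adjusted p = 0.0558). Stellate cell and fibroblast markers summed to 4648 to 6152 with vehicle and 6097 to 8653 with GW3965, and 14 of 17 tested members were positive, with a median of 0.32. Pdgfra had 147, 77.9, 131 and 134 with vehicle and 244, 178, 207, 216 and 301 with GW3965, a difference of 0.92 ± 0.20 (adjusted p = 0.0576). The lowest member was Ngfr, at -1.13 ± 0.36 (adjusted p = 0.247). No marker of either list was called by limma or edgeR, while DESeq2 called 1 endothelial and 4 stellate cell or fibroblast markers. Unadjusted limma p-values were below 0.05 for 8 endothelial markers, all higher, and for 7 higher and 1 lower stellate cell or fibroblast markers. Over all 13379 tested genes, such p-values were found for 857 higher and 742 lower. Kupffer cell markers summed to 5927 to 6971 and 6126 to 8852, with 7 of 15 positive. Lymphocyte and recruited myeloid markers summed to 1972 to 3677 and 1237 to 3542, and cholangiocyte markers to 603 to 936 and 676 to 1143. All 6 tested cholangiocyte markers had a positive difference, with a median of 0.47. Without replicates 17 and 18, 3 were positive, with a median of 0.17. None was called by limma, edgeR or DESeq2. The defining cholangiocyte marker Krt19 was between 0 and 13.9 in all libraries. The adipocyte gene Adipoq was at 0 in all 5 GW3965 libraries and at most 0.667 with vehicle. Cfd, on the same list of blood, adipose and pancreas markers, reached 76.7 in vehicle replicate 5 and 58.7 in GW3965 replicate 16. That list summed to 2704 to 3488 with vehicle and 1670 to 2923 with GW3965. Of its 7 tested members, 5 had a negative difference and 2 a positive one. The lowest was Alas2, at -0.90 ± 0.19 (adjusted p = 0.0542), with all GW3965 libraries below all vehicle libraries. The part of these cells in the gene differences above was not tested. All 9 tested mitochondrially encoded transcripts had a positive difference, none was called by limma, edgeR or DESeq2, and without replicates 17 and 18 only 3 were positive.

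The response was set against that of control liver, where 106 genes had an adjusted p below 0.05 (0.792% of tested genes). This count ran from 22 without control GW3965 replicate 10 to 109 without replicate 13. The 2 comparisons share no library. Of the 33 genes called in Gata4LKO liver, 31 had the same sign in control liver, and 17 were called in both, which is 51.5% of the calls in Gata4LKO liver and 16.04% of those in control liver. Of the 106 control calls, 91 had the same sign in Gata4LKO liver and 64 had an unadjusted p below 0.05 there with the same sign. Scd2 rose by 2.53 in control liver and Scd1 by 3.10, close to the 2.38 and 3.15 of Gata4LKO liver. The differences between the genotypes were -0.15 for Scd2 and 0.05 for Scd1, with unadjusted p of 0.613 and 0.951. For Abcg5 and Abcg8 they were -0.09 and -0.08. Larger values in control liver were seen for Srebf1 (2.26 against 1.44), Ehhadh (2.61 against 2.20) and Acaa1b (2.49 against 1.83). None of these passed the test of the difference between genotypes. The absolute difference was larger in Gata4LKO liver for 22 of the 33 genes called there. It was larger in control liver for 99 of the 106 control calls. Choosing genes by their call in a genotype favours larger values in it, so these counts do not rank the responses. Over all tested genes the log2 differences of the 2 genotypes had a Pearson correlation of 0.251 and a Spearman correlation of 0.312. Genes are not independent replicates, and these values only describe the libraries.

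**Figure D5:**
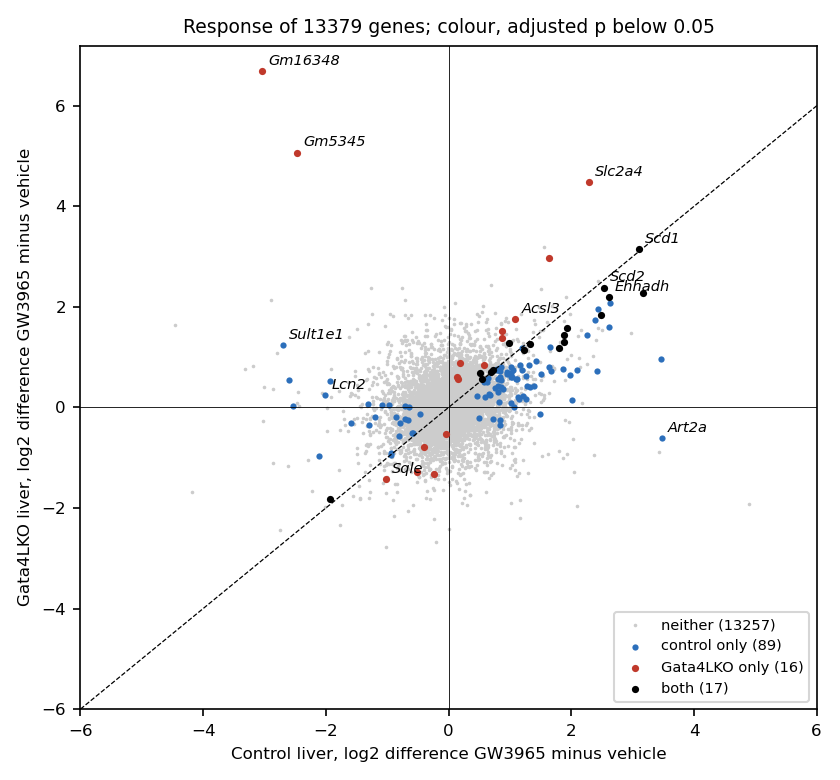
Log2 difference between GW3965 and vehicle of each of 13379 genes in control liver (x axis) and Gata4LKO liver (y axis), with the line of equality dashed. Black points were called in both (17 genes), red in Gata4LKO liver and not in control liver (16) and blue in control liver and not in Gata4LKO liver (89); Gm5345, Gm16348 and Sult1e1 lie at the upper left.

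The difference between the genotypes in their response passed the test in 2 of 13379 genes (0.0149%), and 622 genes had an unadjusted p below 0.05 (4.65%). With edgeR's quasi-likelihood test the count was 0, with 621 genes at an unadjusted p below 0.05, and with DESeq2 it was 26. It was 0 without replicates 17 and 18 of the Gata4LKO GW3965 group. Leaving out 1 library gave 9 without control GW3965 replicate 13, 3 without Gata4LKO GW3965 replicate 17 and 0 or 1 otherwise. Sult1e1, an estrogen sulfotransferase (chr5:87575969-87591594), had 8.68, 9.47, 17.2 and 15.8 with vehicle and 18.1, 49.0, 26.8, 17.3 and 62.5 with GW3965 in Gata4LKO liver. In control liver it went from 92.2, 90.2, 155 and 67.9 to 10.8, 30.0, 8.74 and 13.3. The log2 differences were 1.25 and -2.70, and they differed by 3.95 ± 0.60 (SE; adjusted p = 0.0374). The other was Gm5345, at 7.54 ± 1.18 (adjusted p = 0.0374), whose split between libraries is given above. Next in order of p were Gm16348 (9.72), Ces2a (-0.96), Art2a (-4.09), Gm37163 (2.96), Il1r1 (1.29), Mfsd2a (1.94), Lcn2 (2.26) and Syne3 (-1.69), none of which passed the test. Lcn2, an iron-scavenging protein of the acute phase, had 105, 185, 182 and 219 with vehicle and 161, 170, 197, 243 and 238 with GW3965. It differed by 0.25 in Gata4LKO liver and by -2.01 in control liver. Il1r1, the interleukin-1 receptor, stood at 1395, 2053, 1939 and 1699 with vehicle and at 2538, 3602, 3291, 2646 and 2810 with GW3965. Its differences were 0.75 in Gata4LKO liver (adjusted p = 0.0652) and -0.54 in control liver. Of the 33 genes called in Gata4LKO liver, 9 had an unadjusted p below 0.05 for the difference between genotypes and 1, Gm5345, passed after adjustment. In the authors' deposited tables, 188 genes had an adjusted p below 0.05 for GW3965 against vehicle in Gata4LKO liver, 145 higher and 43 lower. All 33 genes were among them, and so were genes named above that limma did not call. Their deposited adjusted p was 0.0307 for Srebf1, 0.00612 for Gata6, 0.000613 for Pdk4, 0.0168 for Abcc4 and 0.00534 for Il1r1. It was 0.00205 for Abca1, 0.00426 for Lpcat3, 0.0186 for Mylip and 0.00639 for Alas2. Cyp8b1 (0.125) and Cyp7a1 (0.643) did not pass there.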

How the data were processed

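Libraries made from liver RNA with an mRNA kit, per the labels, were analysed from 1 deposited table of normalized signal values and from deposited comparison tables that give, per the file headers, log2 fold changes with raw and adjusted p-values. Alignment with STAR 2.6.0c to mm10, FastQC and DESeq2 are named in the submitters' processing notes. No source used here names the read counter, the annotation or the strand setting. The deposited signal is the reads per gene divided by 1 factor per library, since 100% of values were whole multiples of 1 read within 0.05 read, so reads could be recovered.

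Genes at 10 or more in at least 4 of 17 libraries (13379 of 24676) were tested with limma 3.58.1 on log2(normalized count + 1), in 1 fit of the 4 groups with a mean-variance trend, with Benjamini-Hochberg adjustment at 0.05. The script was checked on simulated data. Folds are on that scale and understate changes of low genes. edgeR 4.0.16 and DESeq2 1.42.0 on recovered reads, TMM rescaling, other pseudocounts and filters, array weights, single genotypes and left-out libraries were alternatives. Counting intervals are exact at 95% and cover counting error only. Counts in replicates of a group differed by 16.1 times sampling noise or more (chi-square per degree of freedom), so none was treated as a duplicate. Positions come from GENCODE M21 and promoters from RefSeq (GRCm38.p6). Groups follow the titles. The rule for naming genes took the 15 largest changes in each direction among called genes with a mean of at least 50 in the higher group, called list members, the extreme members of each list, the 10 smallest interaction p-values and a fixed set of LXR genes. Not all extreme members are described. Other list members, such as Fasn, Acaca, Cyp51, Hsd3b5, Cdh5, Pdgfra and Xbp1, met no rule and were picked as examples with their values known. The members and lists were chosen with earlier results of these data known.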

Additional observations from a re-analysis of the deposited data

Results flagged for a closer look

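Of 84 tests by Dixon's criterion, each of 1 gene in 1 Gata4LKO group, 9 found a library far from the others. Chance gives about 1 in 20 only for normally distributed values. Counts near 0, such as those of Gm16348, are not so distributed, so the 9 are not read as an excess. GW3965 replicate 16 was far above for Srebf1 (9363 normalized counts), Adam11 (3087) and Slc2a4 (257). Vehicle replicate 6 was far above for Adam11 (364) and vehicle replicate 8 for Denn2b (290). Vehicle replicate 8 was lowest for Scd2 (71.0) and vehicle replicate 5 for Sqle (549). GW3965 replicate 15 was highest for Cyp2u1 (249). Vehicle replicate 5 held the single read of Gm16348 in its group (0.667). The difference between GW3965 and vehicle was not the same in Gata4LKO and control liver by the interaction test for Sult1e1 (3.95 on the log2 scale) and Gm5345 (7.54). Neither call was there with edgeR or without GW3965 replicates 17 and 18. The libraries near 0 for Gm5345 did not follow treatment in control liver, so its value cannot be told apart from that split.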

How the results depend on the processing

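The 33 calls in Gata4LKO liver became 200 with DESeq2 and 355 with array weights, each including all 33, and 12 without replicates 17 and 18, an alternative chosen after seeing the data. Leaving out 1 Gata4LKO library at a time gave 6 to 78. The 2 interaction calls became 0 with edgeR, 26 with DESeq2, 0 with a minimum of 50, 40 with array weights, 1 without the 5 libraries of over 10% mitochondrial share and 0 without replicates 17 and 18, and leaving out 1 library gave 0 to 9. The 106 control calls became 226 with DESeq2, 57 without a filter, 247 with array weights, 19 with control libraries alone and 63 without the libraries of high mitochondrial share, and leaving out 1 library gave 22 to 109. The causes were not tested. Nr1h2 changed sign without replicate 17 (-0.24 to 0.0502 over the fits that left out 1 library) and without the libraries of high mitochondrial share (0.0245 in both such fits). Of 881 values of 42 named genes under the alternatives, these 3 reversed, 217 lost their call and 17 gained one. No paired analysis was possible because each replicate number belongs to 1 library only. With 4 and 5 libraries per group the precision is limited by their number, and low genes such as Gm16348 by their reads.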
